A study of Mus musculus with 17 samples.

Results

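The replication-dependent histone genes are the clustered genes named Hist1h, Hist2h, Hist3h and Hist4h, which encode the linker histone H1 and the core histones H2A, H2B, H3 and H4. Both deposited count tables carry most of them under newer symbols, and only 9 rows have a symbol that starts with Hist1h, Hist2h, Hist3h or Hist4h. The genes were therefore matched by Ensembl identifier to their symbols in the GENCODE vM21 annotation of GRCm38, which gave 70 of 56305 rows, each present in both tables. They comprise 6 H1, 20 H2A, 19 H2B, 12 H3 and 13 H4 genes, of which 67 are annotated as protein-coding and 3 as pseudogenes. By their symbols, 56 belong to the Hist1 cluster on chromosome 13 and 10 to the Hist2 cluster on chromosome 3. The Hist3 cluster on chromosome 11 has 3, and Hist4h4 lies alone on chromosome 6. The pseudogene Hist1h2al, at chr13:51202727-51203065, lies far from the other Hist1 genes.

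Total RNA was sequenced from bone marrow of C57BL/6 mice that had acute myeloid leukaemia and carried Dnmt3aR878H/+ and Npm1cA/+, with libraries titled Mt1ko, from a CRISPR-Cas9 knock-down of Mt1, the gene of the metal-binding protein metallothionein 1, and libraries titled control, whose own treatment the labels leave unstated. The Mt1ko group held 9 libraries, and the control group held 8, and both groups carried both leukaemia alleles. Every library was labelled a technical replicate, so how many mice lie behind them is not known, and p-values measure only the spread between these samples. The authors' sums of libraries gave 3 Mt1ko samples (libraries 4-6, 10-12 and 16-18) and 3 control samples (libraries 1-3, 7-9 and 14-15), and these 6 sums were compared.

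Replication-dependent histone genes are transcribed mainly in S phase, when new chromatin has to be packaged. Most of their mRNAs carry no poly(A) tail and end shortly after a conserved stem-loop, which is bound by the stem-loop binding protein Slbp and cut with the help of the U7 small nuclear RNA. Because the library kit starts from total RNA, such transcripts can be sequenced, whereas selection for poly(A) would lose most of them. In bulk RNA, fewer cells in S phase and less histone RNA per cell cannot be told apart.

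The stem-loop was searched for along the whole sense strand of the vM21 transcripts, as the conserved 16-base histone stem-loop with both 6-base arms paired. It was present in 46 of the 70 genes. In the 45 of these with an annotated coding end it lay 25 to 62 bases after that end, with a median of 35 bases. The sequences below show the form found in the most abundant gene of each class that held one, with 2 more to show the other arms and loop; capitals mark the 16 bases of the stem-loop, and letters are DNA, 5′ to 3′ on the gene's strand.
Hist1h1c, chr13:23739507-23739532, plus strand: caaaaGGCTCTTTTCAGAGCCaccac
Hist2h2aa1, chr3:96246027-96246052, plus strand: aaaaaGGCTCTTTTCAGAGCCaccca
Hist2h2ac, chr3:96220413-96220438, minus strand: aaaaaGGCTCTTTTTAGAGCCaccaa
Hist1h2be, chr13:23585526-23585551, minus strand: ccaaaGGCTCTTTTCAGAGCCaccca
Hist1h3e, chr13:23561898-23561923, minus strand: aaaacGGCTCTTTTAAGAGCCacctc
Hist1h4d, chr13:23581945-23581970, plus strand: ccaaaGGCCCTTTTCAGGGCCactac
Hist1h4b, chr13:23757361-23757386, plus strand: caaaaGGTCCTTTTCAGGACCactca
All 34 stem-loops of H1, H2A, H2B and H3 genes had the 5′ arm GGCTCT, whereas all 12 of H4 genes had another, GGCCCT in 10 genes and GGTCCT in 2. The most frequent sequence was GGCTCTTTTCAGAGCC, held by 3 H1, 10 H2A, 8 H2B and 5 H3 genes. Among the 24 genes without a stem-loop in the annotation, 13 have a coding transcript that ends within 3 bases of the coding end, so the annotated model stops before a stem-loop could occur.

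Gene models also differed in how far they run past the stem-loop. In 23 genes the transcript ended within 100 bases of it, and these genes held 37.3% of the summed histone level. In the other 23 it ran farther, in 14 of them past an AATAAA, the usual polyadenylation signal, and these held 48.7%. Hist1h1c was of the long kind, with 840 bases after its stem-loop, while Hist2h2aa1 had 35. The counts are per gene and cannot tell the short end from the long one.

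The targeted gene was examined first. Mt1 was at 172, 67.8 and 80.7 CPM in Mt1ko samples 4-6, 10-12 and 16-18, against 353, 441 and 359 CPM in control samples 1-3, 7-9 and 14-15. All Mt1ko samples lay below all control samples, but the log2 fold change of -1.85 (SE 0.34) did not pass edgeR's quasi-likelihood test (adjusted p = 1.00). Library 6, labelled Mt1ko, had 326 CPM of Mt1, close to the 348 to 471 CPM of the control libraries, while the other Mt1ko libraries had 41.8 to 87.2 CPM. It goes against its label and is part of sample 4-6. With it left out, Mt1 was the only called gene (-2.30, edgeR adjusted p = 0.0102). Libraries held 27124722 to 38645072 counts. Mitochondrial ribosomal RNA took 21.9% to 30.2% of counts in Mt1ko libraries 10 to 12, against 4.58% to 11.2% in the other libraries, and 11548 to 13174 genes had a count there, against 14823 to 17739 elsewhere. Myeloid markers Lyz2, Itgam, Csf1r, Cd68, Fcer1g and Ptprc were all at 10 CPM or more, 7 of 8 B cell markers and 6 of 6 T and NK cell markers were under 1 CPM, and the summed mast and basophil markers were at 3861 CPM in Mt1ko 10-12 and at most 612 CPM in any other sample.

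Taken as a sum of TMM-scaled CPM, the 70 histone genes were at nearly the same level in both groups. They reached 741, 680 and 617 CPM in Mt1ko samples 4-6, 10-12 and 16-18, against 734, 669 and 626 CPM in control samples 1-3, 7-9 and 14-15. The groups overlapped throughout, with means of 680 ± 61.8 CPM in Mt1ko samples and 676 ± 54.0 CPM in control samples (SD, n = 3 each), a log2 difference of 0.01, which was -0.0082 without library 6, labelled Mt1ko. As a share of plain counts, these genes took 0.0742%, 0.0579% and 0.0635% in Mt1ko samples 4-6, 10-12 and 16-18. Control samples 1-3, 7-9 and 14-15 had 0.0755%, 0.0704% and 0.0657%. Without the scaling, Mt1ko 10-12 was therefore the lowest sample, and the Mt1ko average lay below the control average, though the groups overlapped. Across libraries, as CPM of total counts, the sum had a lowest value of 466, a median of 684 and a highest value of 780 CPM in the 9 Mt1ko libraries, against 573, 710 and 840 CPM in the 8 control libraries. The lowest libraries were 10 and 18, both Mt1ko, and the highest was control library 1.

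The second index sequence of the libraries, a barcode that the labels do not call a batch, was used to compare the histone sum within sets. Under the first index the sum averaged 741 CPM in 3 Mt1ko libraries and 748 CPM in 5 control libraries. Under the second index it averaged 614 CPM in 4 Mt1ko libraries and 646 CPM in 3 control libraries. The third index held 2 Mt1ko libraries only, so it gave no comparison. The averages of Mki67 ran opposite ways in these sets. Under the first index Mki67 averaged 75.9 CPM in Mt1ko and 53.7 CPM in control libraries. These averages included Mt1ko library 6, at 106 CPM, and control library 7, at 4.97 CPM. The others overlapped, with 67.6 and 54.0 CPM in Mt1ko libraries 4 and 5. Control libraries 1, 2, 3 and 8 had 92.5, 58.1, 64.0 and 48.8 CPM. Under the second index Mki67 averaged 26.5 CPM in Mt1ko and 74.1 CPM in control libraries. The Mt1ko libraries under the second index were 10, 11, 12 and 16, so most came from sample 10-12. In that order Mki67 was at 0, 57.5, 0 and 48.6 CPM, and the histone sum at 466, 590, 680 and 718 CPM.

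**Figure D1:**
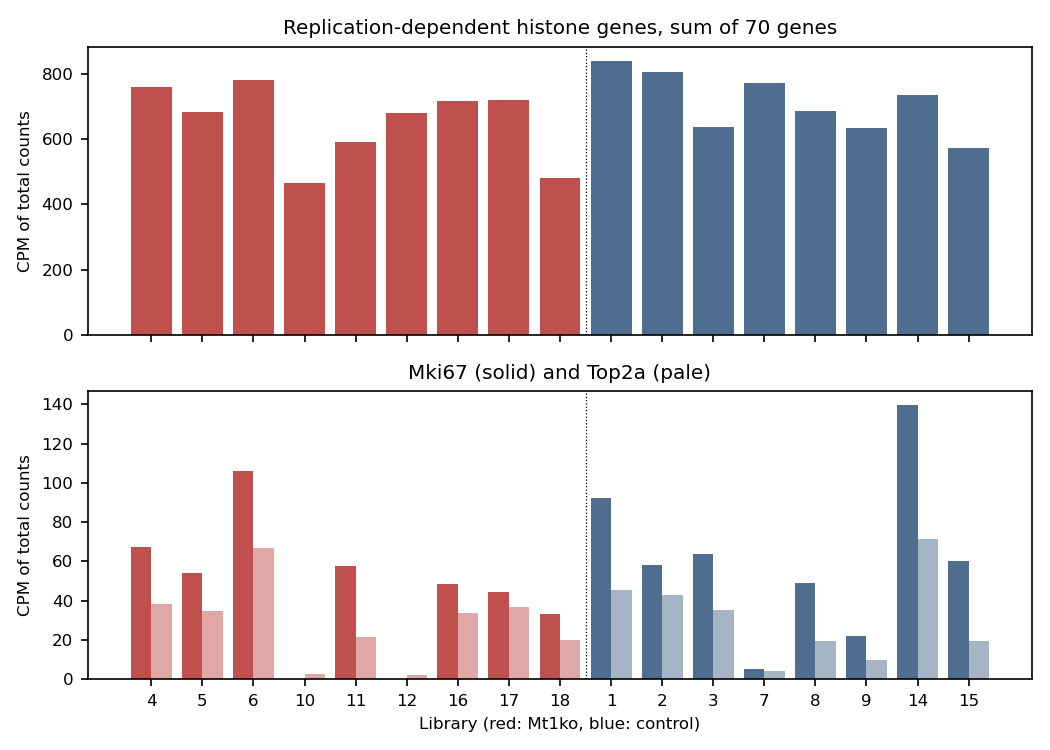
Bars give, for each library, the summed CPM of the 70 replication-dependent histone genes (top) and the CPM of Mki67 and Top2a (bottom), with Mt1ko libraries on the left in red and control libraries on the right in blue. The histone sum stayed between 466 and 840 CPM in every library, while Mki67 had 0 counts in Mt1ko libraries 10 and 12 and reached 140 CPM in control library 14.

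Mki67 and Top2a, which encode a proliferation marker and the DNA topoisomerase of dividing cells, had coefficients of variation over the 17 libraries of 69.5% for Mki67 and 68.9% for Top2a. That of the sum of 70 histone genes was 15.6%, but a sum of many genes varies less than its members, and single histone genes had a median of 78.1%. Mki67 was at 77.0, 24.1 and 40.4 CPM in Mt1ko samples 4-6, 10-12 and 16-18, against 68.2, 23.8 and 97.1 CPM in control samples 1-3, 7-9 and 14-15. Top2a was at 47.4, 10.7 and 29.2 CPM in the Mt1ko samples, against 39.6, 10.5 and 44.5 CPM in the control samples, in the same order. Both were lowest in Mt1ko 10-12 and in control 7-9, and both groups overlapped. Neither passed the test, with log2 fold changes of -0.42 (SE 0.55) for Mki67 and -0.12 (SE 0.63) for Top2a and an edgeR adjusted p of 1.00 for both.

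The number of histone counts for each count of these references therefore differed mainly between samples of the same group. Summed histone CPM over the summed CPM of Mki67 and Top2a was 5.96, 19.6 and 8.87 in Mt1ko samples 4-6, 10-12 and 16-18, against 6.80, 19.5 and 4.42 in control samples 1-3, 7-9 and 14-15. One sample of each group stood near 20 and the others between 4 and 9. On the log2 scale the ratio was 3.34 ± 0.87 in Mt1ko samples and 3.06 ± 1.10 in control samples (SD, n = 3 each), and the difference of 0.27 was smaller than either SD. Its direction rested on single samples: it was -0.20 without Mt1ko 10-12, -0.19 without control 14-15 and 0.88 without control 7-9.

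Single libraries showed the same contrast. Mt1ko libraries 10 and 12 had 0 counts of Mki67, where 3 counts would be 0.0999 and 0.100 CPM, and their histone sums were 466 and 680 CPM. Control library 7 had 4.97 CPM of Mki67 and a histone sum of 773 CPM, the highest of its group after libraries 1 and 2. Top2a was at 2.70 and 2.00 CPM in Mt1ko libraries 10 and 12 and at 4.13 CPM in control library 7. Whether RNA quality or cell type make-up had a part in this was not tested.

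By class, H2A and H1 supplied most of the level. H2A gave 37.1% of the histone sum in Mt1ko samples and 35.1% in control samples, and H1 gave 34.1% in Mt1ko samples and 34.8% in control samples. H2B gave 11.5% in Mt1ko samples and 12.0% in control samples, H4 gave 10.5% in Mt1ko and 10.9% in control samples, and H3 gave 6.77% in Mt1ko and 7.25% in control samples. These shares are not per length, so long models such as those of the H1 genes weigh more in them.

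**Figure D2:**
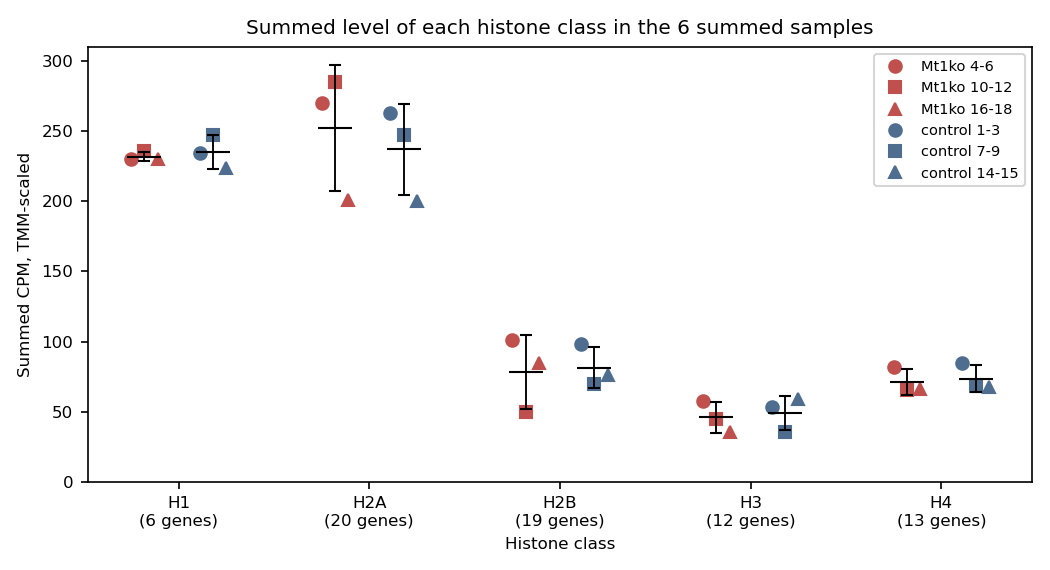
Points give the summed TMM-scaled CPM of each histone class in the 6 summed samples, with Mt1ko left of control within each class; black bars are mean and SD (n = 3 each). The groups overlapped in every class, and H2B in Mt1ko 10-12, at 49.5 CPM, was the lowest sample of its class.

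The classes differed in how steady they were. H1 was at 230, 236 and 230 CPM in Mt1ko samples 4-6, 10-12 and 16-18, against 234, 248 and 224 CPM in control samples 1-3, 7-9 and 14-15. H2B was at 101, 49.5 and 84.9 CPM in the Mt1ko samples, against 98.2, 69.7 and 76.3 CPM in the control samples. On this TMM-scaled measure, H2B was lowest in the sample of each group that was also lowest in Mki67, whereas H1 was highest there. For H1 in Mt1ko 10-12 this depended on the scaling. As CPM of total counts, H1 was at 164, 213 and 223 CPM in Mt1ko libraries 10, 11 and 12. Other Mt1ko libraries had 202 to 261 CPM. Control libraries 7, 8 and 9 had 296, 242 and 237 CPM, against 205 to 262 CPM in the other control libraries. H2A averaged 252 ± 45.0 CPM in Mt1ko and 237 ± 32.7 CPM in control samples, H3 averaged 46.0 ± 11.0 CPM in Mt1ko and 49.0 ± 12.3 CPM in control samples, and H4 averaged 71.1 ± 9.04 CPM in Mt1ko and 73.6 ± 9.84 CPM in control samples (SD, n = 3 each). The log2 differences of the 5 class sums ran from -0.09 for H3 to 0.09 for H2A, with -0.02 for H1 and -0.05 for both H2B and H4.

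The level was concentrated in few genes. Hist1h1c, Hist2h2aa1 and Hist1h1e together held 43.1% of the histone sum, and the 10 highest genes held 67.3%. Averaged over the 6 samples, 14 genes were at 10 CPM or more, 44 lay from 1 to under 10 CPM, and 12 were under 1 CPM. A count in every library was found for 16 genes. No count in any library was found for 4 genes, namely Hist1h2aa and Hist1h2ba, which encode histones of the testis, the pseudogene Hist1h2aj, and Hist2h3c1, every 50-base stretch of which is shared with other transcripts. Hist1h1t, which encodes the linker histone of the testis, was at 0 in 13 of 17 libraries and averaged 0.156 CPM.

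Each gene was then tested over the whole table, after a filter on low counts that 63 of the 70 genes passed. None of the 63 was called at an adjusted p of 0.05 by edgeR, and none of all 16666 genes tested was called either (0.0%). At an unadjusted p under 0.05 stood 1 of the 63, Hist1h2ai, against 171 of all genes (1.03%), which DESeq2 raised to 318 with 1 gene, Mt1, called. Log2 fold changes were above 0 in 28 histone genes and below 0 in 35, with a median of -0.05; over all genes the median was -0.01 and 51.7% were below 0. When Mt1ko 10-12 was left out, 35 of 65 tested histone genes were above 0 and the median was 0.08.

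In 6 of the 63 genes the Mt1ko and control samples did not overlap, against 7.1% of all genes tested. The Mt1ko samples were higher in 4 (Hist1h1d, Hist1h1a, Hist1h2bc and Hist1h2bh), against 2.74% of all genes, and lower in 2 (Hist1h4a and Hist1h4j), against 4.36% of all genes; none was called. The 95% interval of the fold change lay within 1 log2 unit of 0 in 10 of the 63 genes (15.9%), against 45.3% of all genes, so for most histone genes a difference of 2-fold between the groups was not excluded by the interval.

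**Figure D3:**
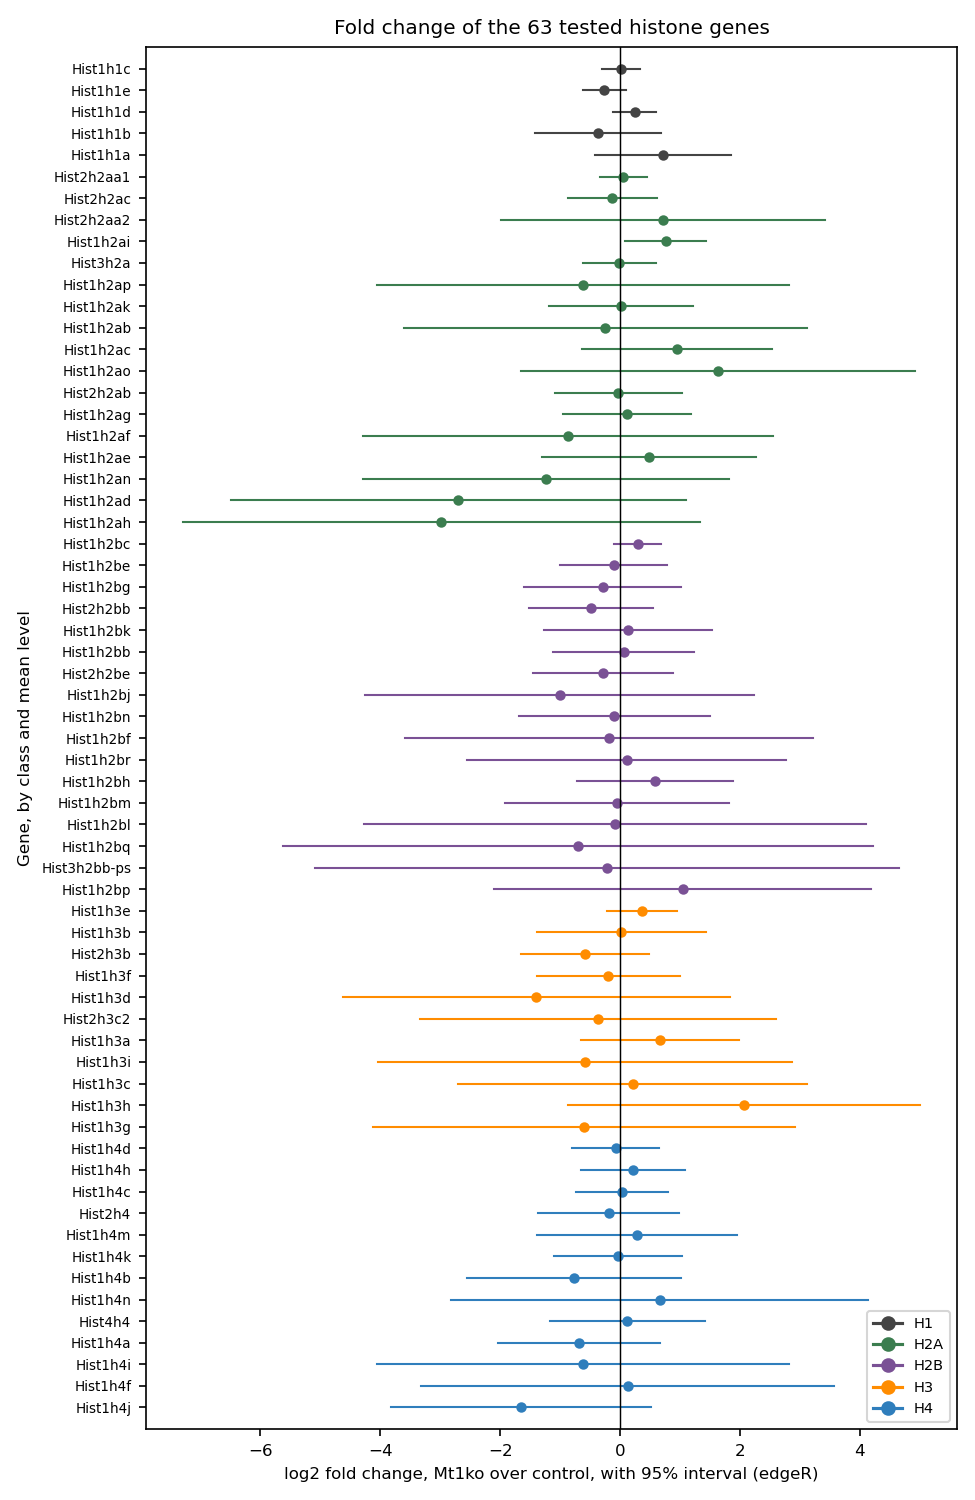
Points give the log2 fold change, Mt1ko over control, of the 63 tested histone genes with their 95% intervals from edgeR, ordered by class and by mean level within a class. Estimates ran from -2.98 to 2.07. Intervals were narrow for the leading genes Hist1h1c, Hist2h2aa1 and Hist1h1e, but width did not follow level alone. At 17.2 CPM on average, Hist2h2aa2 had -1.98 to 3.42, while Hist1h4c, at 7.07 CPM, had -0.74 to 0.80. The interval of Hist1h2ai was the only one to leave out 0.

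Among the linker histones, the somatic genes Hist1h1c, Hist1h1e and Hist1h1d led. Hist1h1c (H1f2 in the tables, chr13:23738808-23740367, plus strand) was at 109, 119 and 109 CPM in Mt1ko samples 4-6, 10-12 and 16-18, against 118, 120 and 93.7 CPM in control samples 1-3, 7-9 and 14-15. The groups overlapped, with a log2 fold change of 0.02 (SE 0.14), and over the 17 libraries its coefficient of variation was 15.7%, close to the 15.6% of the sum of all 70 genes. Hist1h1e (H1f4, chr13:23620629-23622558, minus strand) was at 68.4, 54.7 and 67.9 CPM in the Mt1ko samples, against 65.3, 82.6 and 80.6 CPM in the control samples, with a log2 fold change of -0.26 (SE 0.16). Its model overlaps that of Hist1h2be on the same strand and shares 23.8% of its 50-base stretches with it, so reads there cannot be given to 1 gene.

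Hist1h1d (H1f3, chr13:23553262-23560686, plus strand) was at 40.6, 55.3 and 43.7 CPM in the Mt1ko samples, against 39.9, 39.0 and 39.0 CPM in the control samples. Its samples did not overlap, by a margin of under 1 CPM, and edgeR gave 0.25 (SE 0.16) on the log2 scale with an adjusted p of 1.00. The highest value came from Mt1ko library 11, at 77.6 CPM, against at most 50.6 CPM in any control library. Its annotated model is 7425 bases long, far longer than the other H1 models, and 4884 of these lie after the stem-loop. Of the other H1 genes, Hist1h1b averaged 6.08 CPM and Hist1h1a averaged 2.97 CPM over the 6 samples.

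Among the H2A genes, Hist2h2aa1 stood first, both in CPM and per length. Hist2h2aa1 (H2ac18, chr3:96245497-96246082, plus strand) was at 126, 118 and 94.4 CPM in Mt1ko samples 4-6, 10-12 and 16-18, against 122, 114 and 89.7 CPM in control samples 1-3, 7-9 and 14-15. Samples of the same rank in both groups nearly coincided, and the log2 fold change was 0.06 (SE 0.17). Per kilobase of exon its level was 193 CPM in Mt1ko samples and 186 CPM in control samples, against 72.1 CPM in Mt1ko and 70.9 CPM in control samples for Hist1h1c. Hist2h2ac (H2ac20, chr3:96220361-96220880, minus strand) followed with 71.1 CPM per kilobase in Mt1ko samples and 77.7 CPM per kilobase in control samples.

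Hist2h2aa1 has a near-copy, Hist2h2aa2, a few kilobases away on the opposite strand. Every 50-base stretch of Hist2h2aa2 also occurs in another transcript, the overlapping Gm20634 among them, and 10.6% of those of Hist2h2aa1 are its own. Hist2h2aa2 was at 0.91, 51.1 and 12.0 CPM in the Mt1ko samples, against 3.67, 24.2 and 11.1 CPM in the control samples, and it was at 0 in 6 of 17 libraries. With a log2 fold change of 0.72 (SE 1.16), it is 1 of the 4 largest positive values among histone genes whose average log2 CPM reached 1; without Mt1ko 10-12 it was -0.99. The sum of both genes was steadier, at 134 ± 32.2 CPM in Mt1ko and 122 ± 19.2 CPM in control samples (SD, n = 3 each).

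Hist1h2ao and Hist1h2ap show most plainly how counts were divided between near-copies. They share more than 93% of their 50-base stretches, and in 15 of 17 libraries 1 of the genes had counts while the other was at 0. Hist1h2ao alone was at 0 in 9 libraries, Hist1h2ap alone in 6, both in 1, and neither in 1. Hist1h2ao was at 12.7, 6.79 and 2.72 CPM in Mt1ko samples 4-6, 10-12 and 16-18, against 2.06, 5.04 and 0 CPM in control samples 1-3, 7-9 and 14-15, and its log2 fold change of 1.64 (SE 1.42) was the largest positive value among histone genes whose average log2 CPM reached 1. Hist1h2ap had -0.62 (SE 1.48). Their sum was at 15.8 ± 7.44 CPM in Mt1ko samples and 15.2 ± 9.47 CPM in control samples (SD, n = 3 each), so the opposite values of the pair were not seen in the sum.

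**Figure D4:**
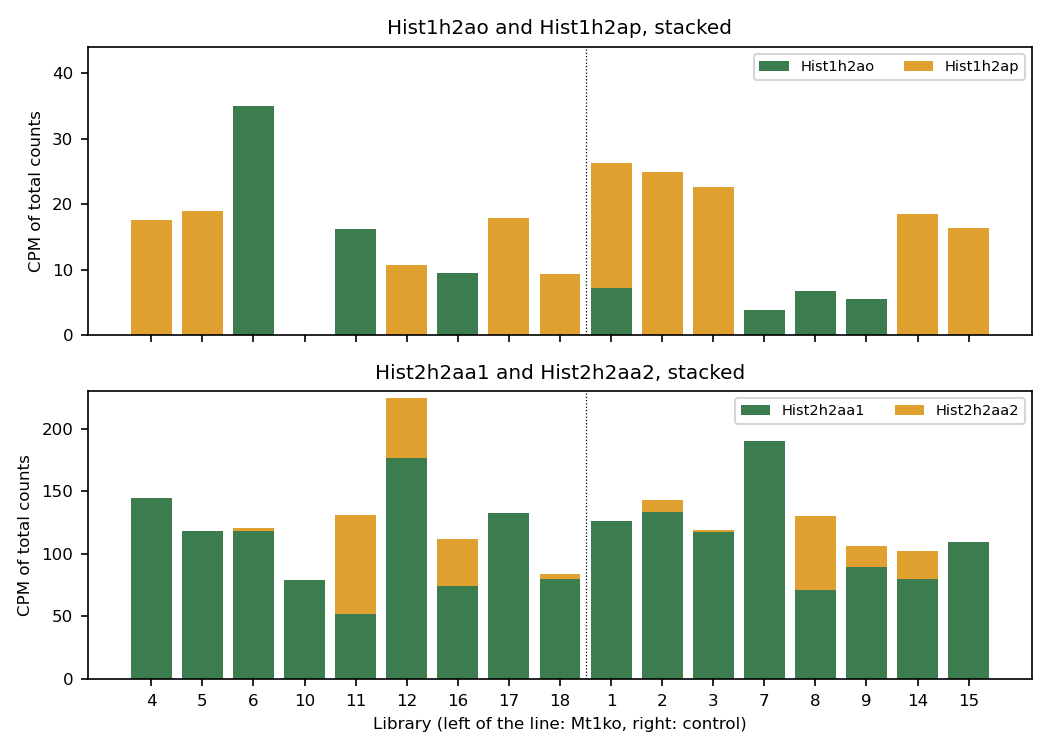
Stacked bars give the CPM of Hist1h2ao with Hist1h2ap (top) and of Hist2h2aa1 with Hist2h2aa2 (bottom) in each library, Mt1ko on the left and control on the right of the dotted line. In the upper pair nearly every bar has 1 colour, and only control library 1 has both; in the lower pair Hist2h2aa2 was at 0 in 6 of 17 libraries.

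Hist1h2ai (H2ac13, chr13:21716422-21716814, plus strand) was the gene with the smallest p. It was at 21.3, 20.9 and 12.1 CPM in Mt1ko samples 4-6, 10-12 and 16-18, against 8.66, 10.9 and 12.4 CPM in control samples 1-3, 7-9 and 14-15. The lowest Mt1ko sample lay just under the highest control sample, and 0.76 (SE 0.29) on the log2 scale had an unadjusted p of 0.0313 and an adjusted p of 1.00 by edgeR. It shares 84.0% of its 50-base stretches with Hist1h2ad, which was at 0.46, 0 and 0.29 CPM in the Mt1ko samples, against 2.60, 0.19 and 2.12 CPM in the control samples. Hist1h2ac, of which 85.9% of stretches are its own, was at 5.31, 15.3 and 2.46 CPM in the Mt1ko samples, against 2.48, 5.87 and 3.56 CPM in the control samples. Its log2 fold change of 0.96 (SE 0.68) was -0.03 without Mt1ko 10-12, where library 12 alone had 29.2 CPM.

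Among the H2B genes, Hist1h2bc (H2bc4, chr13:23684199-23692908, plus strand) was the most abundant and the steadiest. It was at 21.4, 20.5 and 21.9 CPM in Mt1ko samples 4-6, 10-12 and 16-18, against 18.6, 16.6 and 16.8 CPM in control samples 1-3, 7-9 and 14-15. The groups did not overlap, but 0.30 (SE 0.17) on the log2 scale had an unadjusted p of 0.119 and an adjusted p of 1.00 by edgeR. It was one of the genes without a stem-loop in the annotation, and it is known from other work as a gene that also gives polyadenylated mRNA. Hist1h2bg, which carries the stem-loop, was at 10.2, 2.16 and 12.0 CPM in the Mt1ko samples, against 11.6, 9.30 and 8.83 CPM in the control samples. Hist1h2be was at 15.8, 6.89 and 9.29 CPM in the Mt1ko samples, against 15.0, 7.86 and 11.6 CPM in the control samples; both genes were lowest in Mt1ko 10-12, and without that sample their log2 fold changes were 0.16 for Hist1h2bg and 0.13 for Hist1h2be, against -0.29 and -0.10 with it.

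Promoter sequence was compared between the classes. In RefSeq promoters of GRCm38.p6, 61 of the 70 genes had an entry at their own start, and the 250 bases before the start were searched on both strands. ATTTGCAT, the octamer bound by Oct-1 and known from H2B promoters, occurred in 7 of 16 H2B and 7 of 17 H2A genes and in none of the 28 promoters of other classes, against 1.60% of 32851 promoters. These 14 genes hold 11 places of the octamer, because 3 places lie in the overlapping windows of an H2A gene and its H2B neighbour and count for both. The H2B genes Hist1h2bc, Hist2h2be and Hist3h2bb-ps had no entry and were not searched. Their models start at chr13:23684199, chr3:96221119 and chr11:58954512. Just upstream lie octamers counted for Hist1h2ac (chr13:23684082), Hist2h2ac (chr3:96221073) and Hist3h2a (chr11:58954566). These places therefore cannot be assigned to the H2A gene alone. TATAAA occurred in 47.5% of the histone promoters, against 12.4% of all, and CCAAT in 82.0%, against 33.8% of all; no motif contains another. CCAAT was held by all H1, H2A and H2B promoters searched and by 3 of 12 H4 promoters. The sequences show the 100 bases just before the start in the 3 H2B genes of highest level among those found to hold the octamer. Capitals mark the octamer, and letters run 5′ to 3′ on the gene's strand.
Hist1h2be, chr13:23585971-23586070, minus strand: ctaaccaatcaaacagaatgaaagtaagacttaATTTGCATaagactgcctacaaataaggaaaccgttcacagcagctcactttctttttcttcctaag
Hist1h2bg, chr13:23571300-23571399, plus strand: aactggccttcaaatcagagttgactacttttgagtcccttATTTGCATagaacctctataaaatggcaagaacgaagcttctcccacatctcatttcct
Hist2h2bb, chr3:96269600-96269699, plus strand: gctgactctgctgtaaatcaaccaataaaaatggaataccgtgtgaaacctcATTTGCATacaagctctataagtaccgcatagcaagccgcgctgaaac
Over the 6 samples, the 7 H2B genes found with the octamer averaged from 0 CPM for Hist1h2ba to 11.1 CPM for Hist1h2be. Among them, Hist1h2bm averaged 1.75 CPM and Hist1h2bg 9.01 CPM. The class reached 19.3 CPM in Hist1h2bc, whose promoter was not searched.

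Among the H3 genes, Hist1h3e (H3c6, chr13:23561534-23562369, minus strand) led with 11.6, 13.6 and 9.83 CPM in Mt1ko samples 4-6, 10-12 and 16-18, against 10.1, 8.94 and 8.19 CPM in control samples 1-3, 7-9 and 14-15. Its groups overlapped by 1 sample, and the log2 fold change was 0.37 (SE 0.25). Hist1h3b was at 10.6, 10.2 and 2.30 CPM in the Mt1ko samples, against 8.51, 4.01 and 10.2 CPM in the control samples. Hist2h3b was at 9.16, 2.60 and 6.22 CPM in the Mt1ko samples, against 8.01, 10.1 and 8.89 CPM in the control samples. In CPM not scaled by length, the H3 genes as a group were far below the replication-independent H3 genes H3f3a and H3f3b, which encode the variant H3.3. H3f3a and H3f3b together were at 817 ± 73.7 CPM in Mt1ko samples and 784 ± 104 CPM in control samples (SD, n = 3 each). Their models are 3504 and 2976 bases long, against 411 to 1825 bases in the H3 genes, so the gap was smaller per length. Per kilobase of exon, H3f3b was at 158 CPM in Mt1ko and 150 CPM in control samples, and H3f3a at 99.4 CPM in Mt1ko and 96.6 CPM in control samples. The highest H3 genes per kilobase were Hist1h3e in Mt1ko samples, at 14.0 CPM, and Hist2h3b in control samples, at 18.4 CPM.

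Among the H4 genes, whose coding sequences differ while their protein is nearly always the same, Hist1h4d (H4c4, chr13:23581598-23582735, plus strand) was highest. It was at 23.3, 12.8 and 21.9 CPM in Mt1ko samples 4-6, 10-12 and 16-18, against 27.2, 14.7 and 19.0 CPM in control samples 1-3, 7-9 and 14-15, with a log2 fold change of -0.07 (SE 0.31). Hist1h4h was at 12.8, 18.3 and 7.24 CPM in the Mt1ko samples, against 14.1, 8.83 and 10.0 CPM in the control samples. Hist1h4c was at 9.01, 6.01 and 6.43 CPM in the Mt1ko samples, against 8.60, 6.80 and 5.60 CPM in the control samples. All 3 genes overlapped between the groups, with log2 fold changes of 0.22 (SE 0.37) for Hist1h4h and 0.03 (SE 0.33) for Hist1h4c.

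The 4 largest negative values among histone genes whose average log2 CPM reached 1 all rested in part on Mt1ko 10-12. Hist1h3d was at 4.13, 0 and 2.22 CPM in Mt1ko samples 4-6, 10-12 and 16-18, against 4.81, 3.77 and 8.13 CPM in control samples 1-3, 7-9 and 14-15. Hist1h2bj was at 3.53, 0 and 3.40 CPM in the Mt1ko samples, against 6.44, 4.52 and 2.91 CPM in the control samples. Hist1h2af was at 4.28, 0 and 2.71 CPM and Hist1h4b at 4.33, 0.52 and 3.90 CPM in the Mt1ko samples, against 7.28, 1.36 and 4.08 CPM for Hist1h2af and 4.39, 3.15 and 7.30 CPM for Hist1h4b in the control samples. In each gene the sample of libraries 10 to 12 was the lowest of all 6. Log2 fold changes were -1.39 for Hist1h3d, -0.86 for Hist1h2af and -0.76 for Hist1h4b, with Hist1h2bj between the first and the second of these. Without Mt1ko 10-12 they were -0.81 for Hist1h3d, -0.28 for Hist1h2af, -0.26 for Hist1h4b and -0.41 for Hist1h2bj.

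In the small clusters, Hist3h2a (H2aw, chr11:58954685-58956830, plus strand) was at 10.1, 11.6 and 10.5 CPM in Mt1ko samples 4-6, 10-12 and 16-18, against 10.1, 13.5 and 8.79 CPM in control samples 1-3, 7-9 and 14-15. Hist4h4 (H4f16, chr6:136801553-136804415, minus strand) averaged 3.06 ± 0.69 CPM in Mt1ko and 2.82 ± 1.19 CPM in control samples (SD, n = 3 each). Hist3h2ba averaged 0.0499 CPM and the pseudogene Hist3h2bb-ps 0.447 CPM over the 6 samples. None of these 4 genes passed the test, and Hist3h2ba was not tested.

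Zeros were unevenly spread over libraries and genes. Of the 70 genes, 41, 34 and 41 were at 0 in Mt1ko libraries 10, 11 and 12, against 8 to 23 in each of the other libraries. The sum over the 70 genes in these 3 libraries was 466, 590 and 680 CPM, and the 3 leading genes Hist1h1c, Hist2h2aa1 and Hist1h1e had counts in all 17 libraries. The 66 genes with any count were divided by the share of their 50-base stretches found in no other vM21 transcript. Under 20% unique were 15 genes, with a median of 5 libraries at 0 and a median coefficient of variation over libraries of 113%. From 20% to under 60% were 27 genes, with 2 libraries at 0 and 74.3%, and at 60% or more were 24 genes, with 1 library at 0 and 74.6%. Across the 66 genes, which share libraries and depth, Spearman's rho of the coefficient of variation was -0.33 with uniqueness and -0.78 with mean CPM. The 9 rows that kept an older symbol in the tables were 2.68% to 55.9% unique, 7 of them under 20%, and together they held 4.17% of the histone sum.

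**Figure D5:**
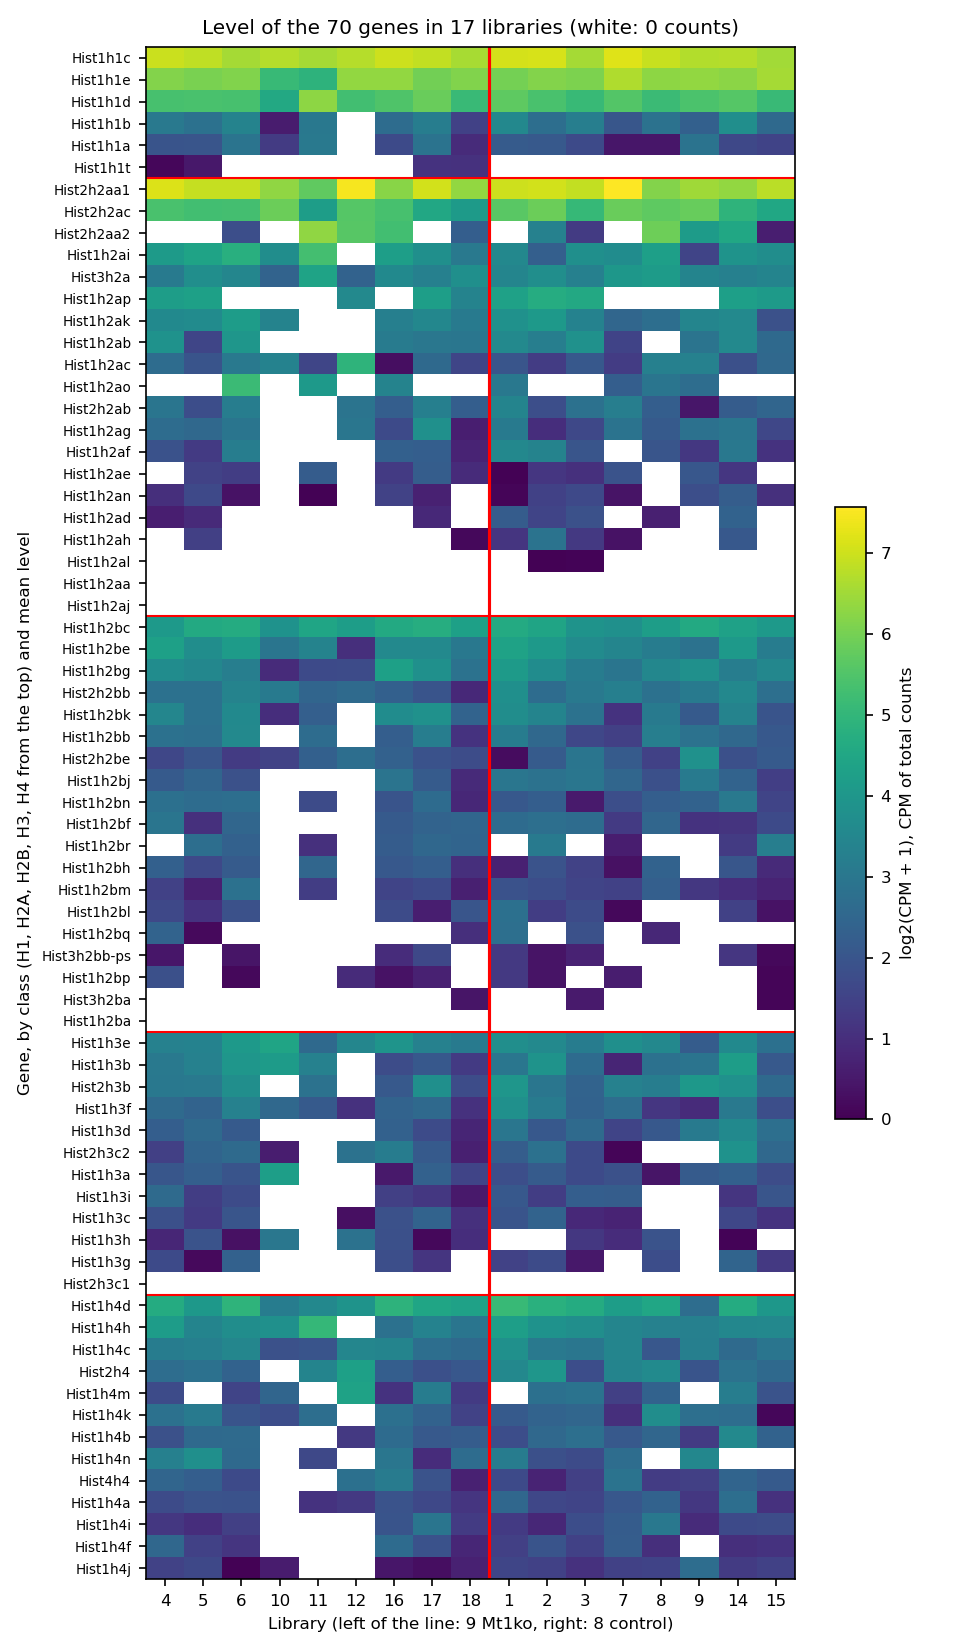
Colours give log2(CPM + 1) of each of the 70 genes (rows, by class and mean level) in the 9 Mt1ko libraries (left of the red line) and the 8 control libraries (right); white marks 0 counts. Rows near the top of each class are coloured in nearly all libraries, and Mt1ko libraries 10, 11 and 12 have the most white, with 41, 34 and 41 genes at 0.

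Coding sequences within the core classes were close to one another, which bears on how reads were shared. The median identity between pairs of equal coding length was 96.7% in H2A, 95.6% in H2B, 97.5% in H3 and 93.9% in H4. Besides Hist1h2ao and Hist1h2ap, the pair Hist1h4m and Hist1h4n had 1 gene at 0 and the other not in 4 and 5 libraries, and the pair Hist1h2bq and Hist1h2br in 8 and 4 libraries. Values of single genes that are under 20% unique are therefore uncertain as to which copy was expressed.

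Genes that act on histone genes and their mRNAs were compared as 5 lists, none of which had a called member. Of 31 genes for histone transcription and mRNA 3′ end processing, 15 had a log2 fold change above 0 and 16 below, with a median of -0.00063. Slbp, whose product binds the stem-loop, was at 39.6, 16.4 and 33.0 CPM in Mt1ko samples 4-6, 10-12 and 16-18, against 33.3, 27.3 and 34.1 CPM in control samples 1-3, 7-9 and 14-15. It was lowest in Mt1ko 10-12, and its log2 fold change was -0.09 (SE 0.31). Npat, the coactivator of histone transcription, was at 11.4, 18.0 and 12.0 CPM in the Mt1ko samples, against 15.6, 20.6 and 13.5 CPM in the control samples, and its log2 fold change was -0.27 (SE 0.27). The transcription factor gene E2f1 and the cleavage factor gene Cpsf1 were the 2 of the 31 whose groups did not overlap (6.45%, against 7.1% of all genes), named here after their values were seen. E2f1 was at 11.1 ± 3.10 CPM in Mt1ko and 7.16 ± 0.29 CPM in control samples (SD, n = 3 each), and Cpsf1 was at 52.1, 49.8 and 44.6 CPM in the Mt1ko samples, against 54.2, 52.5 and 55.1 CPM in the control samples.

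Of 9 tested replication-independent histone variants, 5 were above 0 and 4 below, with a median of 0.04. H2afz, which encodes H2A.Z, was the 1 of 9 without overlap, where 7.1% of all genes had none, and is named for that; it was at 55.0, 73.5 and 52.6 CPM in Mt1ko samples 4-6, 10-12 and 16-18, against 50.4, 37.0 and 48.5 CPM in control samples 1-3, 7-9 and 14-15, and edgeR gave it 0.42 (SE 0.19) on the log2 scale with an adjusted p of 1.00. Of 25 histone chaperones and deposition factors, 13 were above 0 and 12 below, with a median of 0.00. The groups did not overlap in 2 of these 25, Nasp and Ubn1, against 7.1% of all genes, and both are named for that. Nasp, a chaperone of H1 and H3, was at 25.7, 24.8 and 18.3 CPM in the Mt1ko samples, against 25.8, 34.3 and 28.3 CPM in the control samples. Ubn1, a subunit of the HIRA complex, was at 122, 106 and 118 CPM in the Mt1ko samples, against 136, 124 and 128 CPM in the control samples.

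Both cell cycle lists had more members below 0 than above, and none was called. Of 40 genes of DNA replication in S phase, 15 were above 0 and 25 below, with a median log2 fold change of -0.05, the same as the histone genes. Pcna, the sliding clamp of DNA polymerase, was at 43.3, 52.2 and 48.5 CPM in Mt1ko samples 4-6, 10-12 and 16-18, against 36.9, 54.6 and 57.7 CPM in control samples 1-3, 7-9 and 14-15. The replicative helicase gene Mcm6 averaged 33.5 ± 7.46 CPM in Mt1ko and 34.1 ± 2.74 CPM in control samples (SD, n = 3 each). Of 30 mitosis genes, which include Mki67 and Top2a, 7 were above 0 and 23 below, with a median of -0.29, against -0.01 over all genes; leaving out 1 sample at a time moved the list's median between -0.67 and 0.03. Their sum ran from 112 to 275 CPM in Mt1ko samples and from 102 to 318 CPM in control samples, so the spread within each group was wider than the distance between the groups, whereas the S phase list ran from 515 to 680 CPM in Mt1ko and from 535 to 627 CPM in control samples.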

How the data were processed

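RNA was isolated from bone marrow and made into stranded total RNA libraries with a SMARTer Pico kit, per the labels' protocols. Whole-number counts of each gene were deposited for 17 libraries and for 6 sums of libraries; each sum equalled its libraries in every gene, with 0 genes differing. The submitters' processing notes list Trimmomatic 0.35, RSEM 1.3.3, GRCm38 and mm10. Not given in the sources used here are the aligner, the strand setting of the counting and the way whole numbers were reached. RSEM divides reads shared by several genes among them by estimation, so values of near-identical histone genes depend on it.

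Of 56305 identifiers, 55141 matched GENCODE vM21, which gave gene symbols and coordinates. Counts of the 6 sums were tested over all genes with edgeR 4.0.16 (filterByExpr, TMM, quasi-likelihood F test, group alone; R 4.3.3), with Benjamini-Hochberg adjustment and a threshold of 0.05. CPM of the sums use TMM-scaled totals, those of libraries the plain totals (27124722 to 38645072). Intervals are at 95%. Sums over all 70 genes were not tested, and class sums were tested only as an alternative. The fit was tested on simulated counts with known changes, set at a smaller spread than these data. These data had a common biological coefficient of variation of 0.67, so the simulation does not show what the fit can recover here. The members and lists were chosen with earlier results of these data known. Named were the 3 highest genes of each class, the 4 largest rises and falls in log2 fold change among tested histone genes whose average log2 CPM reached 1, Mki67, Top2a, Mt1, Slbp, Npat and up to 4 of each other list; Hist1h2ap, Hist1h2ad and the other histone genes outside this rule were named after their values were seen. Alternatives were other scalings and filters, 17 libraries, DESeq2 1.42.0, limma-voom (limma 3.58.1), class sums and leaving out samples. Uniqueness is the share of 50-base stretches found in no other vM21 transcript. Floors cover counting error only, and intervals only how these samples vary.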

Additional observations from a re-analysis of the deposited data

Results flagged for a closer look

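Library values of the named histone genes, the histone sums, Mki67 and Top2a were examined in 60 groups of 8 or 9 libraries, and in 5 of them the highest library stood far from the next; chance gives about 1 in 20. Hist1h2ao was at 35.1 CPM in library 6, labelled Mt1ko, and at 16.2 CPM in the next Mt1ko library. Hist1h2af was at 8.18 CPM in library 6, labelled Mt1ko, and at 4.02 CPM in the next. Hist1h2ac was at 29.2 CPM in Mt1ko library 12 and at 9.22 CPM in the next. Hist2h2aa2 was at 59.2 CPM in control library 8 and at 21.7 CPM in the next control library. Hist1h4b was at 10.8 CPM in control library 14 and at 5.78 CPM in the next.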

How the results depend on the processing

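No paired analysis was possible because the replicate numbers are unique to each library and none is shared between the groups. No histone gene was called under any alternative (lowest adjusted p of a named gene 0.981), nor when any 1 sample was left out, where the count of called genes ran from 0 to 0. Of all genes, 1, namely Mt1, was called with 17 libraries (log2 fold change -1.90; this fit treats technical replicates as independent), with DESeq2 (-1.84) and with library 6 left out (-2.30). The histone sum's log2 difference became -0.15 with the median of log2(CPM + 1), and that of H1 -0.14 with CPM of deposited totals.

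Signs of uncalled values turned as follows; the cause was not tested. With the second index in the fit, Hist2h2ac was 0.057, Hist2h2aa2 -1.07 and Hist1h4d 0.061. With limma-voom, Hist2h2aa2 was -0.52, Hist1h3b -0.10 and Top2a 0.047. With 17 libraries Hist1h4c was -0.0091, and with library 6 left out it was -0.0077 and Hist1h3b -0.14. Leaving out 1 sample gave ranges of -0.083 to 0.091 for Hist1h1c, -0.066 to 0.17 for Hist2h2aa1, -0.39 to 0.091 for Hist2h2ac, -0.99 to 1.55 for Hist2h2aa2, -0.51 to 0.14 for Hist1h2be, -0.68 to 0.16 for Hist1h2bg, -0.29 to 0.45 for Hist1h3b, -0.26 to 0.20 for Hist1h4d, -0.13 to 0.50 for Hist1h4h, -0.17 to 0.21 for Hist1h4c, -0.028 to 1.37 for Hist1h2ac, -0.97 to 0.036 for Mki67, -0.66 to 0.28 for Top2a and -0.36 to 0.20 for Slbp. The difference in the log2 ratio of histones to Mki67 and Top2a ran from -0.20 to 0.88, the members' median from -0.24 to 0.15 and the histone sum's difference from -0.06 to 0.07.

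The precision was limited: the 95% interval lay within 1 log2 unit of 0 in 10 of 63 tested histone genes. Class sums, which do not depend on how copies within a class share reads but still do where reads are shared with another class or with Gm20634, gave no call when tested as rows.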
